A study of Mus musculus with 64 samples.

Results

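The BXD strains of the panel were divided by the level of Pla2g2a, the gene of secreted phospholipase A2 group IIA, on their colon arrays. A strain was counted as high when its log2 intensity was over 12 on both the chow diet (CD) and the high-fat diet (HFD) array, and as low when it was under 10 on both. Of the 30 BXD strains, 9 were high (BXD1, BXD12, BXD32, BXD45, BXD51, BXD64, BXD69, BXD81 and BXD90) and 14 were low (BXD6, BXD11, BXD27, BXD39, BXD40, BXD43, BXD48, BXD48a, BXD55, BXD62, BXD66, BXD67, BXD73 and BXD84). The other 7 BXD strains (BXD8, BXD34, BXD49, BXD75, BXD79, BXD87 and BXD89) and both parents of the panel, C57BL/6J and DBA/2J, did not enter the comparison. The grouped strains account for 46 of the 64 arrays.

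BXD strains are inbred lines derived from crosses of C57BL/6J with DBA/2J. Males of every group were fed either CD or HFD for 21 weeks from 8 weeks of age, and the proximal colon was taken at 29 weeks. Before that, all mice were fasted over the day and then refed with their own diet. Each array measured RNA pooled in equal mass from about 5 mice of the same strain and diet, so the spread between mice was not measured and the strain is the replicate. No genotype entered the comparison, so a strain's alleles near Pla2g2a and its Pla2g2a level cannot be told apart.

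Pla2g2a encodes a small secreted enzyme that releases fatty acids and lysophospholipids from phospholipids and kills Gram-positive bacteria. In the mouse intestine it is known as a product of Paneth cells and as the Mom1 modifier of tumour number in Apc mutant mice. C57BL/6J carries a frameshift in the gene, and RefSeq annotates it in the C57BL/6J genome as a transcribed pseudogene. In a panel of inbred lines, genes that lie close together on a chromosome are inherited together in blocks.

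Pla2g2a chose the groups, and its values are given as a description. The strain mean of the CD and HFD arrays ran from 12.85 to 16.13 (median 14.51) in the 9 high strains on the log2 scale, and from 6.48 to 9.65 (median 8.33) in the 14 low strains. The high strains lay at 12.50 to 15.97 on CD and 12.73 to 16.38 on HFD, and the low strains at 5.55 to 9.84 on CD and 7.09 to 9.46 on HFD. The high strains were spread over more than 3 log2 units and were not at one common level. BXD45 and BXD32 had the highest means and BXD1 the lowest.

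Several strains lay near the thresholds, and 7 of the 30 BXD strains fell between or across them. Just inside, the lowest array of a high strain was that of BXD1 on CD (12.50), and the highest array of a low strain was that of BXD84 on CD (9.84). Just outside, BXD8 had 11.93 on CD and 12.32 on HFD, and BXD34 had 11.17 and 12.89. BXD49 (8.70 and 10.28) and BXD75 (8.61 and 10.33) missed the low group through their HFD arrays. BXD87 went from 9.88 on CD to 13.76 on HFD and so crossed both limits. BXD89 went from 8.55 to 11.92, from the low side to between the limits. C57BL/6J had 8.49 and 10.88, and DBA/2J had 10.77 and 14.71. The HFD minus CD difference of Pla2g2a was 1.08 ± 1.41 (SD, n = 9) in high strains, above 0 in 8 of them, and 0.31 ± 1.13 (SD, n = 14) in low strains, above 0 in 6. It was 1.78 ± 1.46 (SD, n = 7) in the left out BXD strains, above 0 in 6, and 2.39 in C57BL/6J and 3.93 in DBA/2J. A low strain had to stay under 10 on HFD, so the rule itself limits its rise. These values therefore do not compare the response of Pla2g2a between the groups.

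**Figure D1:**
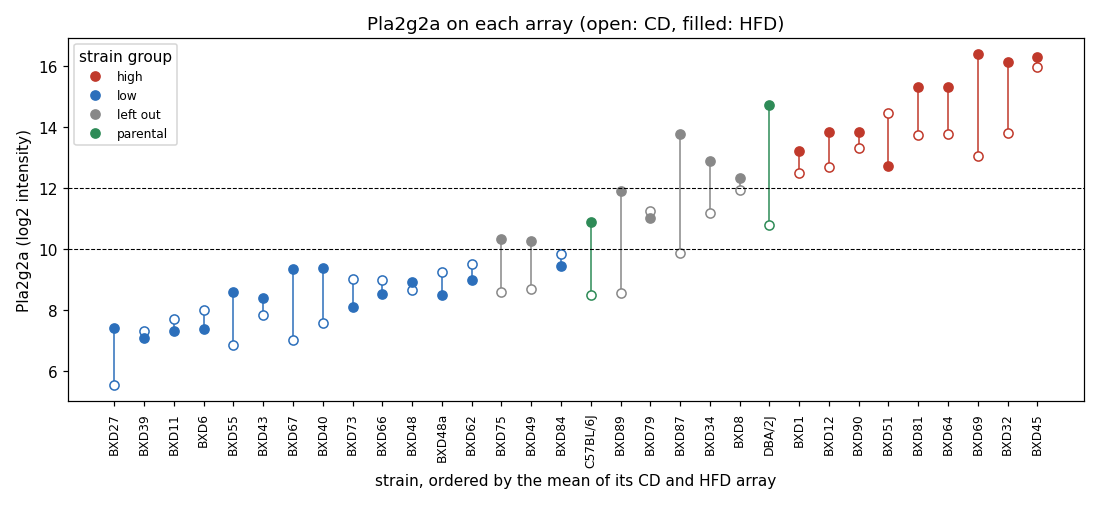
Pla2g2a log2 intensity (y axis) on the CD (open) and HFD (filled) array of each of the 32 strains, ordered along the x axis by strain mean. Dashed lines mark 10 and 12, the limits of the low and high groups, and the left out strains lie between the groups or cross a limit.

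Array medians over genes ran from 6.60 to 6.75 on CD and from 6.65 to 6.76 on HFD. Car1 and Muc2, markers of colonocytes and goblet cells, were near the top of the scale on every grouped array (19.60 to 19.93 and 19.88 to 19.93), and Slc26a3, the colonic chloride exchanger, lay at 13.78 to 17.28. Defa24, a Paneth cell defensin, had medians of 7.35 on high and 6.92 on low arrays, and its highest value was 16.07 on high arrays and above that on low arrays. BXD39, BXD48a and BXD69 have an array rich in Defa24, and values without them are given beside the genes that depend on them.

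BXD90 stood apart from the other high strains in its diet response. Over the 249 genes that changed with HFD in the low strains, which did not include BXD90, 113 (45.4%) moved the same way in BXD90, against 162 to 224 genes in the other 8 high strains. The deviations of its CD and HFD array from the diet means of all 32 strains correlated at -0.03 over all genes. BXD90 was not alone in this, since BXD51 had -0.04 and BXD62 0.00. With deviations from the diet means of the 23 grouped strains, a slightly different measure, the median over these strains was 0.21. Among the strains outside the groups, BXD89 had the lowest share, with 48 of the 249 genes (19.3%). The results are therefore also given without BXD90. Its diet response was the reason to leave it out, so diet results without it are a description and no independent test.

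Over all 19502 genes other than Pla2g2a, 6 differed between high and low strains at an adjusted p under 0.05, which is 0.0308% of the genes tested (limma on strain means, Benjamini-Hochberg). Ddost, Fchsd1 and Micos10 were higher in the high strains, and Tcea3, Akr7a5 and Ubxn10 were lower. Each direction therefore held 0.0154% of the genes. At an unadjusted p under 0.05 there were 1297 genes (6.65%), 700 higher (3.59%) and 597 lower (3.06%). The median difference over all genes was 0.01 on the log2 scale. Strain means of the groups did not overlap for 3 genes (0.0154%), Ddost, Fchsd1 and Micos10.

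Of the 6 genes, 5 lie on chromosome 4 close to Pla2g2a. In gene order, Tcea3, Ddost and Ubxn10 lie 37, 11 and 5 measured genes before it, and Micos10 and Akr7a5 lie 7 and 10 measured genes after it. Among the 50 genes within 25 measured genes of Pla2g2a, 4 (8%) passed the adjusted threshold and 16 (32%) had an unadjusted p under 0.05. Within 100 measured genes the count was 5 of 200 (2.5%), and within 300 it was 5 of 546 (0.916%). The count within 25 measured genes was 2 without any 1 of BXD12, BXD32, BXD45, BXD69, BXD73 or BXD90, and within 100 and 300 it was 2 without any 1 of these strains, or 3 where that strain was BXD73. On HFD arrays alone it was 1 in each window. On the rest of chromosome 4, none of 631 genes passed in limma, with 47 (7.45%) at an unadjusted p under 0.05. All other chromosomes together held 1 called gene, Fchsd1, of 18325 (0.00546%), and 1168 genes (6.37%) at an unadjusted p under 0.05. The share of genes with an unadjusted p under 0.05 was thus 32% next to Pla2g2a, 14.7% at 26 to 100 genes, 12.7% between 100 and 300 genes and 7.45% beyond.

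**Figure D2:**
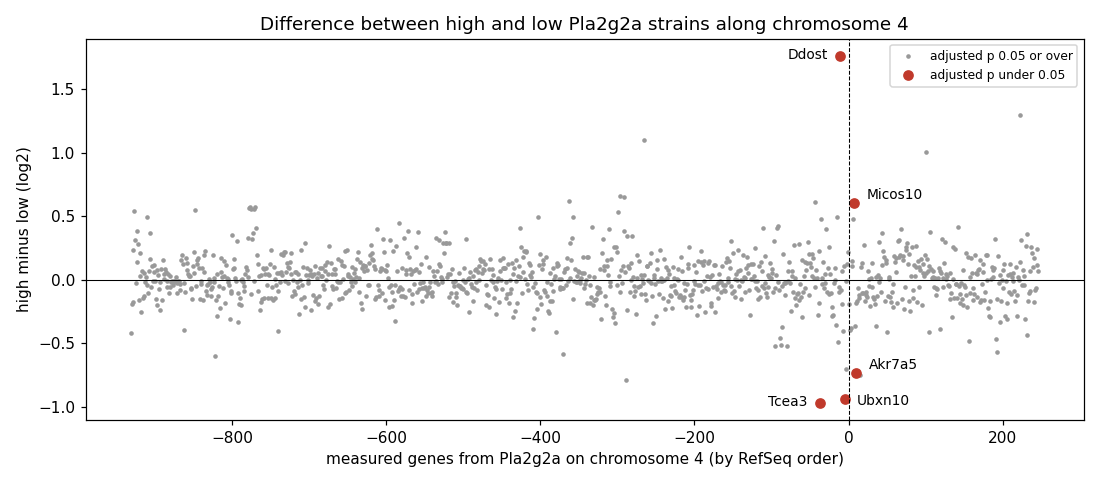
Difference of strain means between high and low strains (y axis, log2) for each measured gene of chromosome 4, placed on the x axis by its number of measured genes from Pla2g2a (dashed line). The 5 red genes passed an adjusted p of 0.05 and all lie within 37 measured genes of Pla2g2a.

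Ddost and Micos10 were the neighbours whose strain means did not overlap between the groups, so their promoters are shown, from 250 bases before to 50 bases after the RefSeq start on the GRCm38.p6 build. The Ddost window is chr4:138304488-138304787 on the plus strand and the Micos10 window is chr4:139130988-139131287 on the minus strand (the first of 2 entries). Capitals mark matches on either strand to the CCAAT box, spelled CCAAT, and to the GC box, spelled GGGCGG. The TATA box, spelled TATAAA, was searched on both strands too and is in neither window. The second Micos10 entry, chr4:139131064-139131363 on the minus strand, overlaps the first and holds 1 TATA box match.
Ddost: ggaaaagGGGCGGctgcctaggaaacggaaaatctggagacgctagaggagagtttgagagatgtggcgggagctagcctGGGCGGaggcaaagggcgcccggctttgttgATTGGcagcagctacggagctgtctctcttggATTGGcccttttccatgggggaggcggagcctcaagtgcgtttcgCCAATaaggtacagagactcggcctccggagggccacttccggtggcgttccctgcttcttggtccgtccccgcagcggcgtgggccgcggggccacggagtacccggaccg
Micos10: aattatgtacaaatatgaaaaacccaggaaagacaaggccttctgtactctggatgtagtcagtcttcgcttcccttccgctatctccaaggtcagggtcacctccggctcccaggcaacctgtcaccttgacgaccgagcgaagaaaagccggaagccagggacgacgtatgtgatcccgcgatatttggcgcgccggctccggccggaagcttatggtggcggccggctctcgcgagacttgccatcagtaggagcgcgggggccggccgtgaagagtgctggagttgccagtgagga
The Ddost window holds 3 matches to the CCAAT box and 2 to the GC box, and the printed Micos10 window holds none of the motifs. Over 32851 promoters of the same length, the CCAAT box is in 37.4%, the GC box in 35.7% and the TATA box in 13.6%. Both are reference sequences of C57BL/6J and give no allele of a BXD strain.

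Ddost encodes a subunit of the oligosaccharyltransferase complex, which attaches N-glycans to proteins in the endoplasmic reticulum. Its strain means ran from 16.10 to 17.26 (median 16.74) in high strains and from 14.63 to 15.43 (median 14.99) in low strains. No low strain reached the lowest high strain, BXD1. The difference was 1.76 on the log2 scale (SE 0.12, adjusted p = 1.37e-10, limma), a 3.38-fold higher level.

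The difference in Ddost was present in either diet. It was 1.99 on CD (SE 0.14), where high arrays lay at 16.33 to 17.22 and low arrays at 14.24 to 15.40. It was 1.52 on HFD (SE 0.18, adjusted p = 6.02e-05, limma), where BXD1 had 15.18 and fell among the low arrays (14.64 to 15.49). All other high arrays on HFD were above every low array. Without BXD1 the difference of strain means was 1.84 and without BXD90 it was 1.75.

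Micos10 encodes a subunit of the MICOS complex, which shapes the cristae of mitochondria. Strain means were 16.98 to 17.51 (median 17.30) in high strains and 16.44 to 16.92 (median 16.60) in low strains. The groups did not overlap, and BXD12 was the lowest of the high strains and BXD40 the highest of the low strains. The difference was 0.60 (SE 0.09, adjusted p = 9.43e-04, limma), a 1.52-fold higher level. It was 0.72 on CD arrays (adjusted p = 0.0175, limma) and 0.48 on HFD arrays, where it did not pass (adjusted p = 0.444, limma). On either diet alone, single arrays of the groups overlapped.

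Tcea3, a member of the S-II family of transcription elongation factors, was lower in high strains. Strain means ran from 9.61 to 10.60 (median 10.08) in high strains and from 10.20 to 11.75 (median 11.15) in low strains. The groups overlapped through low strains such as BXD67, BXD40 and BXD84. The difference was -0.97 (SE 0.17, adjusted p = 0.0236, limma).

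Akr7a5 encodes an aldo-keto reductase that reduces aldehydes. It lay at 8.27 to 9.002 (median 8.69) in high strains and 8.81 to 10.21 (median 9.38) in low strains. The ranges overlapped through BXD48 and BXD84 among the low strains and BXD51 and BXD64 among the high strains. The difference was -0.73 (SE 0.13, adjusted p = 0.0239, limma).

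Ubxn10, a UBX domain protein of the cilium, had the lowest signal of the 6 genes. Strain means were 4.11 to 4.98 (median 4.53) in high strains and 4.62 to 6.56 (median 5.43) in low strains, below the medians of the arrays. BXD66 was the low strain inside the high range. The difference was -0.94 (SE 0.18, adjusted p = 0.0376, limma).

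The calls of the 3 lower genes depended on single strains. Without BXD90 their differences were -0.90 for Tcea3, -0.75 for Akr7a5 and -0.93 for Ubxn10, and the adjusted p values of limma became 0.0791, 0.0549 and 0.102. Without BXD39, BXD48a and BXD69, which have an array rich in Defa24, they were -0.86, -0.73 and -0.97, and none of the 3 passed. None of them passed on the arrays of 1 diet alone, with adjusted p values in limma of 0.276, 0.567 and 0.392 on CD and 0.186, 0.266 and 0.619 on HFD. Ddost, Fchsd1 and Micos10 passed without BXD39, BXD48a and BXD69 and with any single strain left out. On the arrays of 1 diet alone, Ddost and Fchsd1 passed on either diet and Micos10 on CD only.

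**Figure D3:**
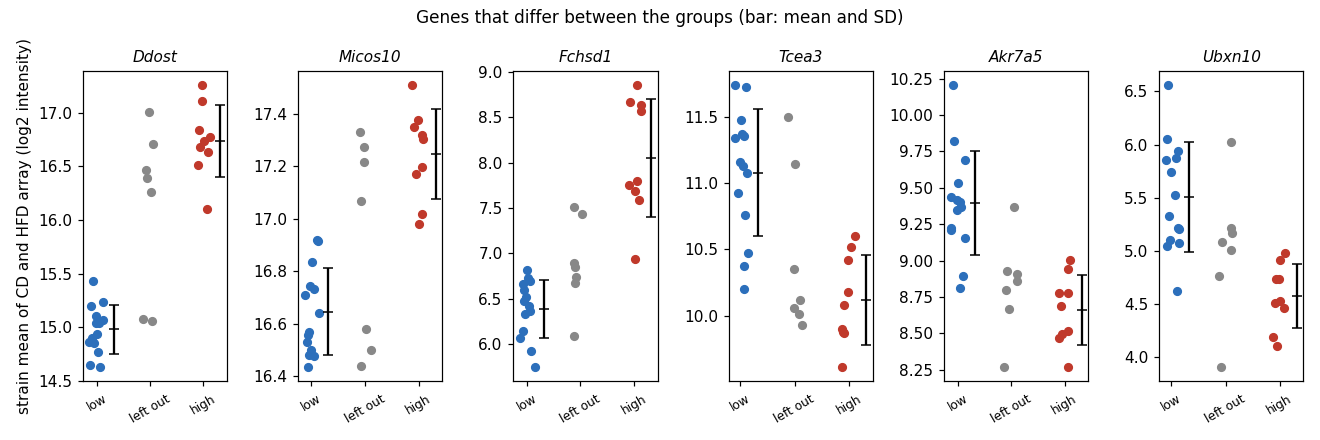
Strain means of the CD and HFD array (y axes, log2 intensity, each gene on its own axis) of the 6 genes that differed between the groups. Each point is a BXD strain and the black bars give the mean and SD of the 14 low and 9 high strains, and in Ddost, Micos10 and Fchsd1 the high and low points do not overlap.

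Most other genes next to Pla2g2a did not pass the adjusted threshold. Of the 10 measured genes on each side, 3 of 20 passed the adjusted threshold and 9 had an unadjusted p under 0.05, 2 higher and 7 lower. Those that did not pass the adjusted threshold were Nbl1, a BMP antagonist, with a difference of 0.48, Camk2n1, an inhibitor of CaM kinase II, with -0.40, the deubiquitinase gene Otud3 with -0.39, the ubiquitin ligase gene Rnf186 with -0.38, the actin capping subunit Capzb with -0.36 and Pla2g2f with -0.70. Their adjusted p values in limma lay between 0.394 and 0.608. Cda, Fam43b, Mul1, Vwa5b1, Tmco4, Htr6 and Slc66a1 had differences of -0.19 to 0.15.

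The secreted phospholipase genes lie in a cluster around Pla2g2a, and none of its other measured members passed the test. Pla2g5 had 7.46 in high and 7.25 in low strains, a difference of 0.22 (SE 0.16). Pla2g2e had -0.19, Pla2g2d 0.12 and Pla2g2c -0.01. Pla2g2f had the largest difference of the cluster, -0.70 (SE 0.18, adjusted p = 0.394, limma), at the low levels of 4.54 and 5.24.

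Across the phospholipase A2 family, 0 of 24 measured members passed in limma and 2 (Pla2g2f and Pnpla3) had an unadjusted p under 0.05, against 0.0308% and 6.65% of all genes. These counts are near the shares of all genes. Their median difference was 0.03, against 0.01 over all genes. Pnpla2, the adipose triglyceride lipase, had the highest level (12.79 in high and 12.66 in low strains). The secreted Pla2g10 had 11.44 and 11.66, and the cytosolic Pla2g4a, which frees arachidonic acid, had 10.51 and 10.66. Pla2g4c varied widely among strains of both groups (SD 1.72 and 2.19), and its difference was -0.22 (SE 0.75).

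Fchsd1, on chromosome 18, encodes an F-BAR and SH3 domain protein of membranes and actin. Its strain means ran from 6.93 to 8.86 (median 7.79) in high strains and from 5.74 to 6.81 (median 6.45) in low strains. The median of the low strains lay below the medians of the arrays. The groups did not overlap, with BXD1 the lowest high strain and BXD84 the highest low strain. The difference was 1.66 (SE 0.19, adjusted p = 1.01e-05, limma), a 3.17-fold higher level. It was 1.40 on CD, where no array overlapped, and 1.92 on HFD, where BXD1 (6.68) lay among the low arrays.

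No gene next to Fchsd1 on its chromosome passed the test. Of the 10 measured genes on each side of it, 0 of 20 passed in limma and 0 had an unadjusted p under 0.05, with differences between -0.21 and 0.14. Fchsd1 and Pla2g2a each rest on 1 probeset, and overlap of their probes with other transcripts was not tested.

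Among the high strains Fchsd1 was higher where Pla2g2a was higher. Pla2g2a formed the groups and Fchsd1 was called between them, so the correlations within groups are given as a description. Over the 9 strain means the Pearson correlation was 0.89 (Spearman 0.92), rank 9 of 19502 genes, and it was 0.83 without the 2 strains farthest from the median. BXD32, BXD45 and BXD69, the strains with the highest Pla2g2a, had the highest Fchsd1 (8.63, 8.86 and 8.67). Over the 14 low strains the correlation was 0.15.

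The 9 strains outside the groups were left out for their Pla2g2a levels or as parents, so their values are not independent of the rule and are given as a description. Over them the HFD minus CD difference of Fchsd1 correlated with that of Pla2g2a at 0.86 (Spearman 0.85), rank 54 of 19502 genes, and at 0.69 without the 2 farthest strains. In the grouped strains this correlation was lower. It was 0.66 over the 9 high strains (Spearman 0.47, rank 878) and 0.15 over the 14 low strains (rank 5747). Without the 2 farthest strains it was 0.44 and -0.06. In BXD87 Fchsd1 went from 6.40 on CD to 8.62 on HFD, in DBA/2J from 5.97 to 8.57 and in BXD89 from 6.07 to 7.27. These are 3 strains with a large HFD minus CD difference of Pla2g2a. Both genes of each point come from the same 2 arrays, so these correlations are descriptions. Of the 249 diet genes, 59.0% moved as in the low strains in BXD87, 39.4% in DBA/2J and 19.3% in BXD89, and the part of this in the correlation was not tested.

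Ddost, which was also called between the groups that Pla2g2a formed, had another pattern, given as a description. Its correlation with Pla2g2a was 0.14 over the 9 high strains and 0.84 over the 14 low strains (Spearman 0.87, rank 5 of 19502 genes, and 0.71 without the 2 farthest strains). Over the 9 strains outside the groups it was 0.80. In BXD87 and BXD89 Ddost was above every low array on CD (17.33 and 16.25), where Pla2g2a was 9.88 and 8.55, and was 16.69 and 16.53 on HFD. On CD the value of BXD87 lay above all high arrays and that of BXD89 just below them.

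**Figure D4:**
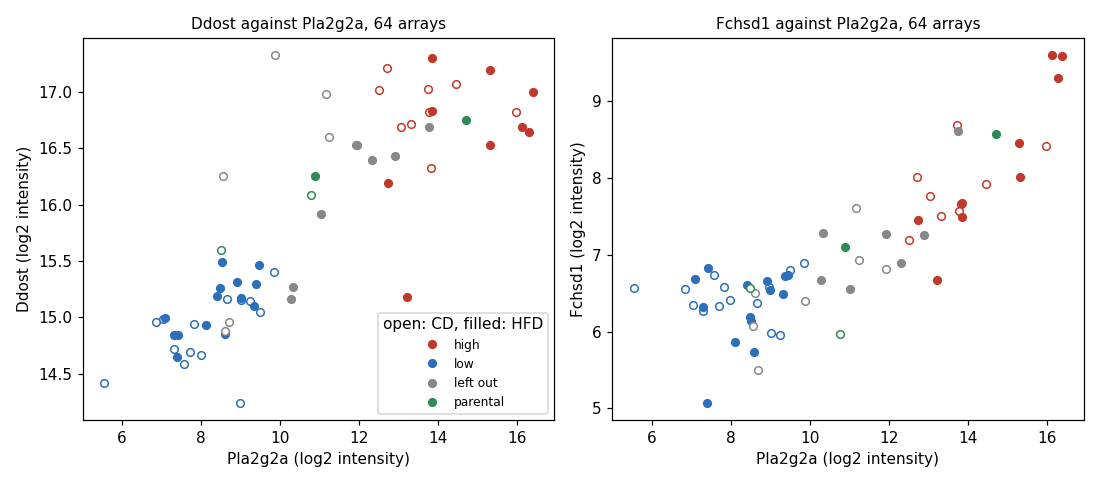
Ddost (left) and Fchsd1 (right) against Pla2g2a, all in log2 intensity, on each of the 64 arrays, with CD open and HFD filled. Ddost falls into a lower and an upper level with few arrays between, whereas Fchsd1 increases with Pla2g2a from about its level of 12 upward.

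The strains left out of the groups were placed by the 5 genes of chromosome 4. For each array, a gene was counted on the high side when it lay on that side of the midpoint of the group means. BXD8 had 5 of 5 genes on the high side on CD and 4 on HFD, BXD87 had 5 and 4, and BXD89 had 5 and 3. BXD49 and BXD75 had 1 on CD and 0 on HFD. BXD79 had 3 and 4 and BXD34 had 2 and 4. Of the parental arrays, DBA/2J had 3 on CD and 4 on HFD, and C57BL/6J had 2 on both. The parents did not split as the groups did. On either diet both lay on the low side at Micos10 and on the high side at Akr7a5. The Ddost strain mean of C57BL/6J (15.93) was above that of every low strain. BXD87 and BXD89 were on the high side at all 5 genes on CD, the diet on which their Pla2g2a was below 10.

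The BXD panel was bred in several waves, and strains numbered up to 42 were taken as early. The early strains held 3 high and 5 low strains and the late ones 6 high and 9 low. All 6 genes had the same direction in either wave. Ddost differed by 1.85 among early and 1.70 among late strains, and Fchsd1 by 1.38 and 1.81. Ubxn10 differed by -1.37 and -0.70.

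Genes downstream of phospholipases and markers of cell types were also examined. With 0.0308% of all genes called and 6.65% at an unadjusted p under 0.05, a count of 0 called in a list this short is near the share of all genes and is no result about the list. Of 32 measured genes of eicosanoid synthesis and its receptors, 0 passed in limma and 1 (Ptger1, a prostaglandin E2 receptor) had an unadjusted p under 0.05, with a median difference of 0.05. Ptger1 had 7.40 in high and 7.63 in low strains (adjusted p = 0.717, limma). Of 19 genes that make, remodel or sense lysophospholipids, 0 passed and 1 had an unadjusted p under 0.05, with a median of 0.10. That gene was Lypla2, a lysophospholipase that also lies on chromosome 4, with 11.48 in high and 10.87 in low strains (adjusted p = 0.488, limma).

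The host defence genes were the next list. Of 25 measured antimicrobial and acute phase genes, 0 passed in limma and 1 had an unadjusted p under 0.05, with a median of -0.07. That gene, the defensin Defb1, had 5.45 in high and 5.95 in low strains (adjusted p = 0.355, limma). Of 14 Paneth cell markers 0 passed and 2 had an unadjusted p under 0.05, Mmp7 with 0.67 and Nupr1 with -0.92. The mean of the Paneth markers ranged from 8.97 to 10.78 over high strains and from 8.32 to 13.76 over low strains, so the range of the high strains lay within that of the low strains.

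The remaining lists covered epithelial, immune, stromal and dividing cells, and none of their members passed in limma. Among 19 colonocyte markers 2 had an unadjusted p under 0.05, Guca2b and Cyp2c55. Guca2b, the gene of uroguanylin, lies 265 measured genes before Pla2g2a on chromosome 4. It had 15.69 ± 0.39 (SD, n = 9) in high and 14.59 ± 0.76 (SD, n = 14) in low strains, a difference of 1.10 (SE 0.25, adjusted p = 0.213, limma). With single arrays and strain as a random replicate block its adjusted p was 0.0273 in limma.

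Immune and proliferation markers had differences of at most 0.60 in size among those with the smallest p. Of 30 cell cycle genes 2 had an unadjusted p under 0.05, Ccnb2 with -0.60 and Kif20a with -0.35 (adjusted p = 0.405 and 0.538, limma). Of 14 T cell and NK cell markers 2 did, Cd3d with -0.50 and Cd4 with 0.34, in opposite directions. Of 23 macrophage and myeloid markers 2 did, Cd163 with 0.26 and C1qb with 0.40, and C1qb lies 29 measured genes before Pla2g2a. The mean level over the macrophage list was 7.01 to 7.52 in high and 6.88 to 7.47 in low strains. Of 24 stem cell and Wnt genes 2 had an unadjusted p under 0.05, Slc12a2 with -0.32 and Lrig1 with -0.22.

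A list of 8 genes was chosen for its variation among strains on these arrays, so it is not independent of them. Of these 0 passed in limma and 1 (Lpo) had an unadjusted p under 0.05. The lactoperoxidase gene Lpo lay at 10.67 to 16.88 (median 15.64) in high strains and at 8.94 to 16.43 (median 10.31) in low strains, so the groups overlapped over most of their range. It had a difference of 2.59 (SE 1.01, adjusted p = 0.645, limma). Its SD within groups was 2.75 and 2.72.

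The HFD minus CD response of the groups was compared next. No gene of 19502 (0%) differed in its response at an adjusted p under 0.05 in limma, and 1133 (5.81%) did at an unadjusted p under 0.05, 637 higher (3.27%) and 496 lower (2.54%) in high strains. Without BXD90 the counts were 0 and 1311. The smallest p belonged to Dnase1l3, a secreted nuclease of myeloid cells. Its HFD minus CD difference was -1.89 to 0.54 (median -0.43) in high strains and 0.03 to 1.94 (median 0.73) in low strains. It was above 0 in 14 of 14 low and 3 of 9 high strains, and the difference between the groups was -1.30 (95% interval -1.86 to -0.74, adjusted p = 0.775, limma).

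Reg3g, an antibacterial lectin, had the largest response difference among the diet-responsive genes. Its HFD minus CD difference was -3.18 to 2.78 (median 0.19) in high strains and -0.83 to 5.50 (median 2.15) in low strains. It was above 0 in 5 of 9 high and 12 of 14 low strains. The difference between the groups was -1.87 (95% interval -3.31 to -0.44, unadjusted p = 0.0122, adjusted p = 0.775, limma), and -2.13 without BXD90 (adjusted p = 0.646, limma). Its relative Reg3b had -1.35 (95% interval -2.73 to 0.03). Reg3b passed in the low strains on its own (2.04, adjusted p = 0.0086, limma), and so did Reg3g, while neither passed in the high strains, a contrast that the test of the difference itself did not carry past the adjusted threshold.

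Of the 10 genes with the smallest p each way for the response, those with a higher value in high strains were Btbd35f14 (1.70), Vmn1r257 (1.31), Gm14594 (1.26), Pate3 (1.08), Zfp980 (1.06), Vmn1r215 (1.04), Ptchd3 (0.88), Olfr344 (0.85), Olfr250 (0.79) and Gm4981 (0.74). Btbd35f14 had a response of 0.87 in high and -0.84 in low strains. Among those with a lower value, Cd37, a tetraspanin of leukocytes, had a response of -0.08 in high and 0.73 in low strains, a difference of -0.81. Rac2, a GTPase of blood cells, had -0.39 and 0.45, and Tlr1, a receptor for bacterial lipopeptides, had -0.70 and 0.11. The histone gene H2bc14 had 0.18 and 1.03. The others with a lower value in high strains were Dnase1l3, given above, Gm11149 (-0.90), Gvin1 (-0.90), Eef2kmt (-0.84), Kdm3a (-0.65) and Gpx7 (-0.61). None of these genes passed an adjusted p of 0.05 (adjusted p = 0.775 for each, limma). Over the 23 macrophage and myeloid markers the median response was -0.06 in high and 0.16 in low strains, against 0.01 and -0.00 over all genes. Of these markers 4 had an unadjusted p under 0.05 for the difference, against 5.81% of all genes. This was not particular to the myeloid list, since 4 of 19 small intestinal markers and 4 of 30 cell cycle genes did too. The median response of the small intestinal markers was 0.36 in high and -0.07 in low strains. That of the cell cycle genes was 0.16 and 0.40.

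Within the low strains, 249 genes changed with HFD at an adjusted p under 0.05 (1.28%, limma), 134 up (0.687%) and 115 down (0.59%). The count in low strains was 147 without BXD27 and 139 with single arrays and no replicate block. Within the high strains, 9 did (0.0461%), all down. At an unadjusted p under 0.05 there were 12.9% in low strains (6.66% up and 6.21% down) and 9.88% in high strains (4.57% up and 5.31% down). The 9 genes of the high strains were Alas1, Ces2a, Cyp2c55, Irf7, Fa2h, Gstm3, Cbr3, Isx and Sptssb, of which 8 were also called in the low strains. The groups have different numbers of strains, and 234 of the 249 genes had the same sign in the high strains.

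The count in the high strains depended most on BXD90, which was set apart for its HFD minus CD values. The diet effect without it is therefore a description here and below, and so are its adjusted p values. Without either BXD51 or BXD81 the count was 3. Without BXD90, 134 genes changed with HFD (0.687%), 30 up and 104 down. Of these 134 genes, 54 (40.3% of these, 21.7% of the genes of the low strains) were also called in the low strains. Saa1, an acute phase protein, had an HFD minus CD difference of -2.89 in BXD90 and above 0 in the other 8 high strains, and its mean went from 1.40 to 1.94 ± 0.63 (SD, n = 8) without BXD90 (adjusted p = 4.28e-05, limma). The low strains had 1.63, above 0 in 14 of 14.

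Of the diet-responsive list, 4 genes fell in both groups at the adjusted threshold. Alas1, the first enzyme of heme synthesis, fell by 1.52 in high strains and by 1.47 in low strains, and by 1.74 in high strains without BXD90. Ces2a, a carboxylesterase, fell by 1.83 and 1.69, and by 2.13 without BXD90. Cyp2c55, a cytochrome P450 of the colon, fell by 1.00 and 1.11, and by 1.26 without BXD90. For Irf7, a regulator of type I interferon, the falls were 1.55 and 1.60, and 1.94 without BXD90. Ly6m fell by 1.79 in low strains (adjusted p = 4.48e-05, limma) and had -1.17 in high strains (adjusted p = 0.105, limma), with a difference of 0.62 between the groups (adjusted p = 0.850, limma). Slc37a2 had -2.06 in high and -1.35 in low strains and passed in neither. Without BXD90 both genes passed in the high strains, Ly6m with -1.31 and Slc37a2 with -2.34 (adjusted p = 0.0234 and 0.0245, limma). The 95% intervals of the difference between groups were -0.60 to 0.50 for Alas1, -0.85 to 0.58 for Ces2a, -0.40 to 0.62 for Cyp2c55 and -0.70 to 0.81 for Irf7.

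Of 14 measured diet-responsive genes, 7 rose and 6 fell in low strains at the adjusted threshold, and 0 rose and 4 fell in high strains. Without BXD90, 4 rose and 6 fell in high strains. These genes were chosen on these arrays, so their counts are not independent evidence of a diet effect. Fabp6, the ileal bile acid binding protein, had an HFD minus CD difference of 0.70 to 7.03 (median 2.33) in high strains, above 0 in 9 of 9, with the highest value in BXD69, a strain with an array rich in Defa24. Its mean of 2.71 did not pass over all 9 high strains (adjusted p = 0.0613, limma), and it was 2.93 ± 2.18 (SD, n = 8) without BXD90 (adjusted p = 0.0186, limma). In low strains Fabp6 rose by 1.98, above 0 in 11 of 14 (adjusted p = 0.0256, limma).

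**Figure D5:**
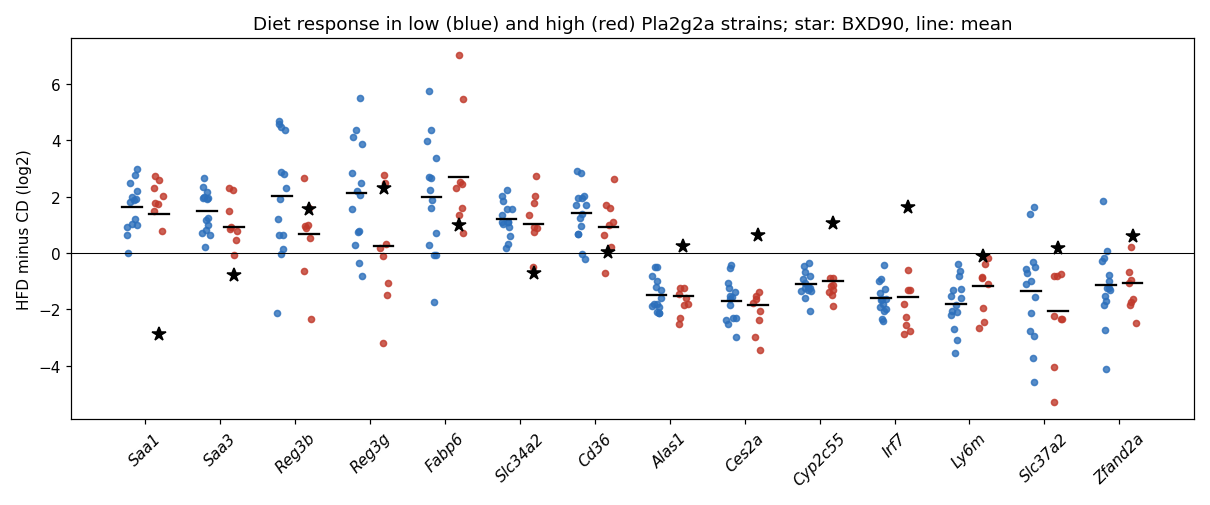
HFD minus CD difference (y axis, log2) of 14 diet-responsive genes in each low (blue) and high (red) strain, with a line at the group mean and a star for BXD90. For Saa1, Alas1, Ces2a, Cyp2c55 and Irf7 BXD90 lies on the other side of 0 from the other 8 high strains, and in Reg3g the low mean (2.13) is above the high mean (0.25).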

How the data were processed

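Clariom S arrays (64) held proximal colon RNA of 32 strains under either diet. The deposited table gives log2 intensity, produced by the authors with the gc-sst-rma-sketch method of Affymetrix Power Tools, and was used without another log or normalization. According to the methods, probes that overlap polymorphisms of the panel were not considered. Whether the deposited table includes that step is not given in the sources used here, and a base difference under a probe would change the signal of a neighbour of Pla2g2a. Of 22199 probesets, 19570 have 1 gene symbol and 2629 have none. The median over probesets was taken for 55 genes with several, giving 19503 genes with no filter on low values. Symbols and gene order came from RefSeq, and coordinates of the array table were not used.

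Each strain entered as the mean or the difference of its CD and HFD array. High and low strains were compared by the moderated test of limma 3.58.1 (R 4.3.3). P-values were adjusted after Benjamini and Hochberg for all 19502 genes (Pla2g2a left out), and they measure the spread between strains. The code was tested on simulated data. Correlations are descriptions. The number of arrays limits the precision. Alternatives were other scalings, a filter to the upper 60% of genes, the mean over probesets, variance trend, breeding wave, sets of strains left out, each strain left out, single diets, single arrays with strain as a replicate block or with no replicate block, and a log2 difference over 1. Genes named are the largest past the threshold, the 10 nearest Pla2g2a on each side, the phospholipase A2 family, the members of each list that passed or had the smallest p, the smallest p each way for the response, and the diet-responsive and strain-dependent genes. Aldh4a1, Alpl and Slc11a1 were named after their values were seen. The strain groups and all 19 lists were chosen with earlier results of these data known. So was the choice to examine BXD90 apart.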

Additional observations from a re-analysis of the deposited data

Results flagged for a closer look

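In 9 of 74 sets of values tested over the 9 high strains, 1 strain lay far from the others by Dixon's test, which chance does in about 1 in 20 sets. In 5 of them the strain was BXD90 and the value its HFD minus CD difference, which was 0.24 for Alas1, 0.64 for Ces2a, 1.06 for Cyp2c55, 1.64 for Irf7 and -2.89 for Saa1, each on the other side of 0 from the 8 other high strains. The Saa1 level of BXD90 was 12.79 on CD and 9.90 on HFD. BXD81 stood apart in the level of Cda (11.005) and in the HFD minus CD difference of Akr7a5 (-1.11). BXD12 stood apart in the level of Htr6 (4.90) and BXD51 in that of Slc34a2 (8.25).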

How the results depend on the processing

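The count of 6 genes between high and low strains was 5 or 6 under the scaling, filter, probeset, variance, breeding wave and replicate block alternatives. It fell to 3 without BXD90, without BXD39, BXD48a and BXD69, on CD arrays only and on HFD arrays only, and to 2 with a log2 difference over 1. In the first 3 of these settings the counts within 25, 100 and 300 measured genes of Pla2g2a were 2, 2 and 2, and on HFD arrays only each was 1. With 1 strain left out, the count was 3 (without BXD12, BXD32, BXD45, BXD69 or BXD90) to 8 (without BXD48), and the counts in the windows 2 to 4, 2 to 5 and 2 to 6. These settings use fewer strains or arrays, and the cause was not tested further. With strain as a random replicate block (consensus correlation 0.13) 6 genes passed, with Guca2b in place of Ubxn10. Ddost and Fchsd1 passed in all 13 alternatives and with each of 23 strains left out, Micos10 passed in 12 of the 13 (not on HFD arrays alone), and Ubxn10 passed in 6 of 12 alternatives and with 8 of 23 strains left out. The response gave 0 genes throughout, also with no replicate block. The diet effect gave 139 in place of 249 genes in low strains with no replicate block, and 9 in high strains. With 1 strain left out it was 3 (without BXD51 or BXD81) to 134 (without BXD90) in high and 147 (without BXD27) to 257 (without BXD48a) in low strains. No named gene turned its direction where it passed in the main or the alternative setting, and no other call changed with the replicate block. Differences that did not pass could turn. The response difference between the groups was 0.05 for Irf7 and 0.11 for Cyp2c55, and -0.34 and -0.15 without BXD90. The CD and HFD deviations of a strain from the diet means of the grouped strains correlated by over 0.1 in 18 of 23 strains. Each strain and diet has 1 array, and Ubxn10 and Pla2g2f have signals below the array medians. So do Fchsd1 in the median of the low strains, and Dnase1l3 and Cd37 in the medians of both groups on either diet (5.26 to 6.10 and 5.94 to 6.48).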

Other observations

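The genes next in order of p after the 6 that passed were Slc11a1 on chromosome 1, a metal transporter of phagocytes, with a difference of 0.42, and Aldh4a1 and Alpl on chromosome 4. Aldh4a1, an enzyme of proline breakdown, lies 15 measured genes after Pla2g2a and had a difference of -0.75. Alpl, the tissue-nonspecific alkaline phosphatase, lies 15 measured genes before it and had 0.50. Each had an adjusted p of 0.213 in limma and was named after its values were seen. BXD48 and BXD48a, both low, are related by name. Their strain means, as deviations over all genes, correlated at 0.09, against a median of -0.05 and a highest value of 0.30 over 253 pairs of the grouped strains.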
